A study of Mus musculus with 2 samples.

Results

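Insulin-like growth factor genes were followed in RNA sequencing counts of RAW264.7 cells, a mouse macrophage line derived from a leukaemia. The 7 genes are Igf1, Igf1r, Igf2r, Igfbp4, Insr, Irs1 and Irs2, found by exact symbol among the 56791 genes of the deposited table, and all 7 were present there. They were chosen with the counts of this same comparison known, so their values are descriptions and carry no test. The treated culture received 10000000 particles of FAPD10-exos together with 20 ng of mouse recombinant IL-4 for 24 h, and the vehicle culture received vehicle with the same IL-4, as the labels are read here. The labels do not spell out the name FAPD10-exos. Both groups are labelled WT and M2 Polarization, and both were grown in DMEM with 20% FBS and 1% penicillin-streptomycin. No culture without IL-4 was analysed here. The comparison concerns FAPD10-exos in macrophages under IL-4, the cytokine of alternative (M2) activation.

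IGF1 is a secreted growth factor whose main receptor, the tyrosine kinase IGF1R, passes the signal to the docking proteins IRS1 and IRS2. From there the PI3K and AKT route and the RAS and MAPK route are switched on. The insulin receptor INSR is the close relative of IGF1R and binds IGF1 weakly, IGF2R takes up IGF2 and lysosomal enzymes instead of signalling like a kinase, and binding proteins such as IGFBP4 hold the ligands in the extracellular fluid. Macrophages are a known source of IGF1 in wounds and regenerating muscle, and IL-4 is known to raise Igf1 in them.

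Each group held 1 library, with 37196241 counts in the FAPD10-exos and 36152743 in the vehicle library. No difference below therefore has a replicate check, and each describes these libraries only. Ratios are FAPD10-exos over vehicle, scaled by TMM (trimmed mean of M-values) effective library sizes. CPM are counts per 1000000 of that size. Ranges in parentheses are 95% counting intervals from the exact Clopper-Pearson method, which cover counting error only and treat each count as a separate read. Most low counts were even (76.3% in the FAPD10-exos and 75.1% in the vehicle library, over genes with 1 to 50 counts), so both ends of a read pair may have been counted. Intervals from halved counts are given for the ratios of the measured members and where stated. All other intervals, those of shares, length-corrected values and pathway genes among them, are too narrow if pairs were counted at both ends. A count of 0 allows up to 3 counts, or 0.0843 CPM in the FAPD10-exos and 0.0794 CPM in the vehicle library. This limit was not adjusted for pairs counted at both ends. If they were, it lies higher, and levels given below as multiples of it are smaller. The 12264 genes that averaged 1 CPM or more are called measured. All 8 macrophage markers examined, among them Csf1r, Cd68 and Lyz2, were measured, with summed levels of 2203 CPM in the FAPD10-exos and 2409 CPM in the vehicle library.

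The promoters of Igf1 and of its signalling receptor are shown because their base composition lies far apart, and those of Igf2r and Igfbp4 because these were the other members with abundant transcripts. The sequences are the 250 bases before the start site in RefSeq on GRCm38.p6, 5′ to 3′ on the strand of the gene, and 6 of the 7 members had one (Insr did not). Capitals mark matches to the letters TATAAA or CACGTG. The windows are chr10:87860861-87861110 (plus strand) for Igf1, chr7:67952007-67952256 (plus) for Igf1r, chr17:12769707-12769956 (minus) for Igf2r and chr11:99040994-99041243 (plus) for Igfbp4.
Igf1: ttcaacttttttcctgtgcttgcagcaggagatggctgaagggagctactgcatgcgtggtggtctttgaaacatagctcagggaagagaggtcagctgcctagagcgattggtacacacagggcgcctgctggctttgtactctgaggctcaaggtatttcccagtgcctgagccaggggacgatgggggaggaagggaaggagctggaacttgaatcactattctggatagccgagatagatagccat
Igf1r: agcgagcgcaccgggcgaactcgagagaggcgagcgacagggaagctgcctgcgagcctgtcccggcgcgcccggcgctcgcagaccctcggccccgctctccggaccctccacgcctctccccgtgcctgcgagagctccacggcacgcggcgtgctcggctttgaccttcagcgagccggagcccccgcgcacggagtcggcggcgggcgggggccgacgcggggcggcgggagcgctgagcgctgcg
Igf2r: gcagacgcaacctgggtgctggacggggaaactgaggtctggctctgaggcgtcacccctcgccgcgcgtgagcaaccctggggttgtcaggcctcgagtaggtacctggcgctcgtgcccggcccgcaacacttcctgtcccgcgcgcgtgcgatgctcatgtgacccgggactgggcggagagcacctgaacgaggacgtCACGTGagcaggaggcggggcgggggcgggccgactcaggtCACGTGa
Igfbp4: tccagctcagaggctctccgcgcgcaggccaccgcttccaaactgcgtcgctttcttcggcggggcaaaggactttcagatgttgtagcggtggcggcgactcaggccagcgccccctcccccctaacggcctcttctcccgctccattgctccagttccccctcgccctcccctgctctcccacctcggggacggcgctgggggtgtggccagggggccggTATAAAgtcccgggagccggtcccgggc

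The Igf1 window held 5 CpG dinucleotides at 52.8% G and C, close to the median of 6 CpG over 32851 RefSeq promoters. Igf1r held 42 CpG at 77.6% G and C, and 99.1% of all promoters had fewer. Igfbp4 had 22, Igf2r 27, Irs1 28 and Irs2 34, so the 5 other members with a promoter all lay above 85.2% of promoters or more and Igf1 alone among the 6 lay near the median. CpG content did not order the transcript levels: the most CpG-rich window belonged to Igf1r, which had no count.

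**Figure D1:**
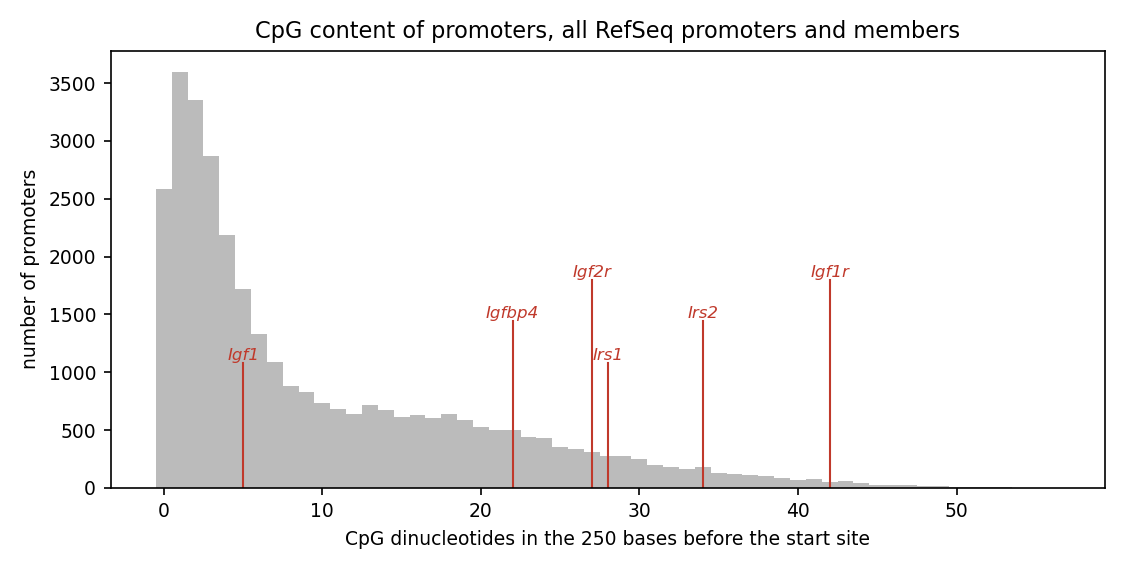
CpG dinucleotides in the 250 bases before the start site (x axis) against the number of RefSeq promoters with that many (y axis, grey bars), with the 6 members that have a promoter as red lines whose height has no meaning. Igf1 sits at 5, near the median of 6, and the others sit between 22 and 42.

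Motifs were searched on both strands of these windows, and no match in the members overlapped another. TTC and GAA with 4 free bases between them, the form preferred by STAT6, the transcription factor of IL-4 signalling, was in 0 of the 6 members and in 5.85% of all promoters. The form with 3 free bases, shared by other STAT factors, was also in 0 of the 6 (7.02% of all), as was the FOXO motif GTAAACA (3.17% of all). TATAAA and the E-box CACGTG were searched after the sequences were seen. TATAAA occurred once, starting 28 bases before the start of Igfbp4 (12.4% of all promoters). CACGTG occurred at 48 and 7 bases before the start of Igf2r, and once each in Irs1 at 115 and Irs2 at 44 bases (6.02% of all). A match in these letters is not a bound site, and no match speaks only for these windows.

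Igf1, the ligand, was the member with the widest gap between the libraries. It had 1743 counts (49.0 CPM) in the FAPD10-exos library, against 132 counts (3.49 CPM) in the vehicle library. The ratio was 14.0 (11.7 to 16.9; 10.9 to 18.3 with counts halved), or 3.81 in log2. In bulk RNA a change in the number of cells that express a gene and a change in RNA per cell cannot be told apart. Among measured genes ordered by the level per base of exon, Igf1 was number 5312 of 12264 in the FAPD10-exos library and number 11788 in the vehicle library. It thus stood above the middle of the measured genes in the FAPD10-exos library and near their bottom in the vehicle library. Of the other measured genes, 1 had a higher ratio, the predicted gene Gm37474, with 96 counts in the FAPD10-exos and 0 in the vehicle library. The deposited table puts Igf1 on the plus strand of chromosome 10, from 87694127 to 87772904, and its exons sum to 9904 bases, none shared with another listed gene. The sources do not name the mouse build of these positions. The Igf1 promoter window on GRCm38.p6, from 87860861, lies past 87772904. The deposited positions thus do not match that build and cannot be compared with the promoter windows.

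The other ligands of the family were at or near 0. Igf2, a ligand mainly of fetal growth, had 2 counts in the FAPD10-exos and 4 in the vehicle library (an uncertain count, since 64.5% of its exon bases lie in other genes too), and the insulin genes Ins1 and Ins2 had 0 in both. Igf1 thus made up 99.9% of ligand counts in the FAPD10-exos library (99.6 to 99.99) and 97.1% in the vehicle library (92.6 to 99.2). Igf1os, a transcript read from the opposite strand at the Igf1 locus and picked after its values were seen, had 8 counts in the FAPD10-exos and 0 in the vehicle library. The counting interval of its ratio started at 1.81, and at 0.701 with counts halved, which includes 1. It shares no exon base with Igf1, and the counting strand is not given.

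The 5 measured genes nearest to Igf1 in log2 ratio over the 2 libraries all had lower ratios. This was fixed by the ranking, since only Gm37474 stood above Igf1 and was further off at a log2 ratio of 7.68. That value was reached by adding 0.5 to both counts of Gm37474, because its vehicle count was 0. The counting interval of Gm37474 started at 4.76 in log2 and had no upper end. All 5 had 0.265 to 0.582 CPM in the vehicle library, so they averaged 1 CPM only through the FAPD10-exos library. They were Gm47445 (86 counts in the FAPD10-exos and 10 in the vehicle library), Cish, a feedback inhibitor of cytokine receptors (84 counts with FAPD10-exos and 10 with vehicle), Cst7, which encodes cystatin F (132 with FAPD10-exos and 22 with vehicle), E230020A03Rik (73 with FAPD10-exos and 14 with vehicle) and Chchd10, a mitochondrial protein (70 with FAPD10-exos and 14 with vehicle). Their log2 ratios lay 0.62, 0.65, 1.14, 1.34 and 1.40 below that of Igf1, and none exceeded 132 counts in the FAPD10-exos library. The counting intervals of Gm47445 (4.73 to 19.7) and Cish (4.62 to 19.3) include the Igf1 ratio, whereas those of the other 3 lie below it. With counts halved, the intervals of E230020A03Rik (2.43 to 14.7) and Chchd10 (2.32 to 14.2) include the Igf1 ratio too. That of Cst7 (3.34 to 13.4) still lies below it.

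**Figure D2:**
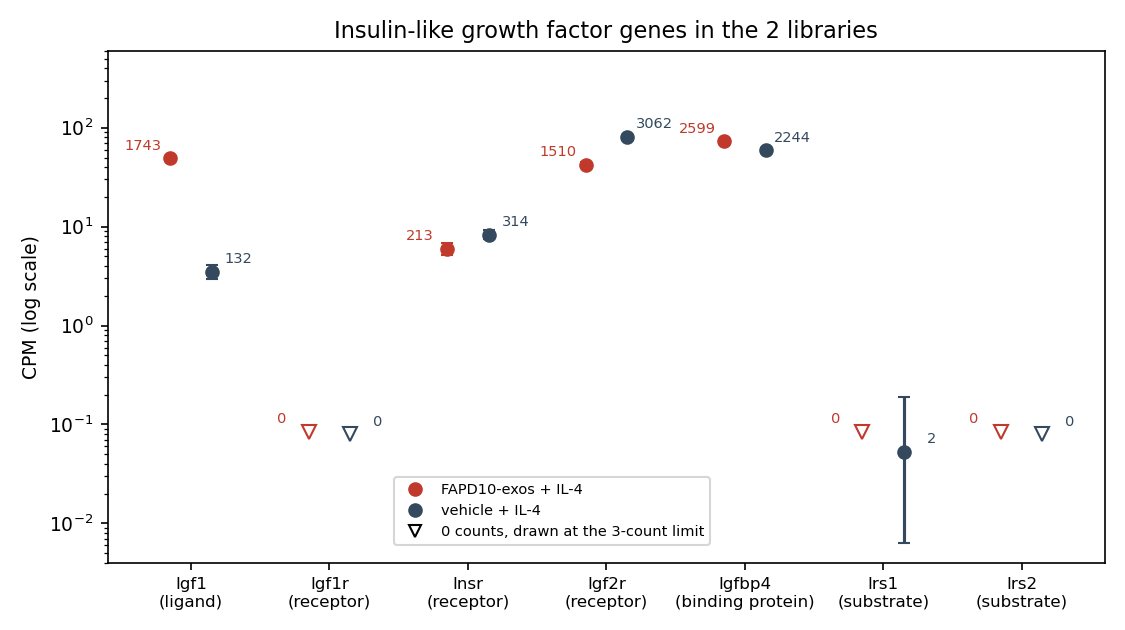
Level of each member in CPM on a log axis (y) by gene (x), FAPD10-exos in red and vehicle in dark blue, with the raw count beside each point. Bars are 95% Poisson counting intervals, smaller than the point for the higher counts, and open triangles stand for 0 counts, drawn at the limit that 3 counts set. Igf1 stands far apart at 49.0 CPM with FAPD10-exos against 3.49 CPM with vehicle, while Igf1r and Irs2 have no count in either.

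Igf1r, the signalling receptor, had 0 counts in the FAPD10-exos and 0 in the vehicle library. Its exons sum to 16791 bases, the longest of the 7 members, on chromosome 7 from 67602575 to 67883416, and no other listed gene shares any of them. The 3-count limit came to 0.0120 TPM (transcripts per 1000000, from counts per base of exon) in the FAPD10-exos and 0.0143 TPM in the vehicle library. Igf1r was therefore not detectable at this depth, and no fold can be given.

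Insr, the insulin receptor, was the kinase receptor of the family that passed the filter. It had 213 counts (5.99 CPM) in the FAPD10-exos and 314 counts (8.31 CPM) in the vehicle library. The ratio was 0.720 (0.603 to 0.860; 0.558 to 0.927 with counts halved). That is 1.39-fold lower in the FAPD10-exos library and within the 1.5-fold threshold. The sign turned after the correction for exon length described below, to 0.24 in log2. Per base of exon Insr stood at 1.04 TPM in the FAPD10-exos library, 86.7 times the 3-count limit of Igf1r, and at 1.82 TPM in the vehicle library, 127.9 times that limit. Insrr, an orphan relative of the pair, had 0 counts in the FAPD10-exos and 4 in the vehicle library. Of the counts of these 3 receptor genes Insr held 100% (98.3 to 100) in the FAPD10-exos and 98.7% (96.8 to 99.7) in the vehicle library.

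Igf2r, the cation-independent mannose 6-phosphate receptor, was the member with the largest gap downwards. It had 1510 counts (42.4 CPM) in the FAPD10-exos library, against 3062 counts (81.0 CPM) in the vehicle library. This is 1.91-fold lower (1.79 to 2.03; 1.75 to 2.09 with counts halved), but the ratio was 0.714 once exon length was corrected for, which is not past the 1.5-fold threshold. Airn, the imprinted non-coding RNA that starts inside Igf2r on the opposite strand and silences the paternal Igf2r copy in many mouse tissues, was looked up after the values of Igf2r were seen. It had 33 counts in the FAPD10-exos and 82 in the vehicle library, 2.34-fold lower (1.54 to 3.62; 1.29 to 4.43 with counts halved), and -1.05 in log2 with exon length corrected for. Igf2r and Airn were thus both lower in the FAPD10-exos library. They share no exon base, but without strand information reads from where they overlap cannot be assigned to one of them.

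Igfbp4 encodes a binding protein that keeps IGF1 and IGF2 from their receptor. It had 2599 counts (73.0 CPM) in the FAPD10-exos and 2244 counts (59.4 CPM) in the vehicle library. The ratio of 1.23 (1.16 to 1.30; 1.13 to 1.33 with counts halved) lies within the 1.5-fold threshold. It was the one binding protein of any abundance. Of the counts over Igfbp1 to Igfbp7, Igfbp4 held 99.8% (99.6 to 99.9) in the FAPD10-exos and 99.6% (99.3 to 99.8) in the vehicle library. Igfbp1, Igfbp3 and Igfbp5 had 0 counts in both libraries, and the rest had few. With FAPD10-exos Igfbp2 had 2, Igfbp6 0, Igfbp7 3 and Igfals, which stabilises circulating IGF complexes, 2 counts. With vehicle Igfbp2 had 0, Igfbp6 4, Igfbp7 4 and Igfals 0.

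The docking proteins were at or near 0. Irs1 had 0 counts in the FAPD10-exos and 2 in the vehicle library, and Irs2 had 0 in both, so neither passed the filter and no fold is given. Irs4 had 0 in both, and Irs3, looked up after these values were seen, had 8 with FAPD10-exos and 0 with vehicle, with an interval of the ratio that started at 1.81, and at 0.701 with counts halved. Exons of Irs1 shared no base with other listed genes and those of Irs2 shared 2.56%. Per base of exon, Insr stood 47.2 times above the 3-count limit of Irs1 and 32.7 times above that of Irs2 in the FAPD10-exos library, and 69.6 and 48.2 times in the vehicle library.

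A gene is called higher or lower here where its ratio passes 1.5-fold and its interval excludes 1. Of the 7 members 4 were measured, of which Igf1 was called higher, Igf2r lower, and Insr and Igfbp4 neither. Over all measured genes these rules called 17.1% higher and 19.8% lower. The contrast was used to choose the members, so nothing is read from these counts. Scaling by total counts in place of TMM put Insr past the threshold as well, which made 2 members lower, and over all measured genes it called 1458 higher and 3060 lower, against 2097 higher and 2429 lower with TMM.

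Levels per base of exon put Igf1 at different places in the order of the members in the libraries. In the FAPD10-exos library Igfbp4 led at 39.7 TPM, followed by Igf1 at 11.9 TPM, Igf2r at 10.9 TPM and Insr at 1.04 TPM. In the vehicle library Igfbp4 led at 40.6 TPM, followed by Igf2r at 26.3 TPM, Insr at 1.82 TPM and Igf1 at 1.06 TPM. Igf1 stood at 1.09 times the TPM of Igf2r in the FAPD10-exos library (1.01 to 1.16; 0.983 to 1.20 with counts halved), so these neighbours in the order do not differ beyond the halved-count interval, and at 0.0405 times in the vehicle library. Igfbp4 exceeded Igf1 by 3.34 times (3.15 to 3.56) in the FAPD10-exos and by 38.1 times (32.0 to 45.8) in the vehicle library. The order rests on the length used, and the counts do not resolve transcript forms. Per base of the principal GENCODE M21 transcript, which for Igf1 is 1673 bases, Igf1 stood at 1.54 times Igfbp4 (1.44 to 1.63) and 6.13 times Igf2r (5.72 to 6.57) in the FAPD10-exos library, which puts it first. In the vehicle library Igfbp4 then exceeded Igf1 by 7.42 times (6.23 to 8.92), and Igf1 stood at 2.35 times Insr (1.90 to 2.89), above it instead of below. The counts in these ratios were still those over all exons of a gene, 9904 bases for Igf1. Any reads outside the principal transcript are thus included and raise the value, so these are not levels of that transcript. The rank of Igf1 among measured genes uses exon length too.

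Exon length moved with the ratio over all measured genes. In 10 bins of equal size by exon length, the median log2 ratio was 0.44 in the bin of the shortest genes, up to 1029 bases, and -0.62 in that of the longest, from 9479 bases. Igf1 and Insr belong to the longest bin, of which 2.94% were called higher and 51.8% lower. Igf1 had the highest ratio of these 1226 genes, and Insr stood at percentile 58.6 of them. Igf2r lies in the next bin down, where 3.42% were called higher and 35.6% lower, and stood at percentile 18.3. Igfbp4 lies in bin 6, where 11.4% were called higher and 15.4% lower, and stood at percentile 72.4.

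Subtracting the running median of genes of like exon length left Igf1 at 4.30 in log2 (4.04 to 4.56), Igf2r at -0.49 (-0.58 to -0.40), Igfbp4 at 0.29 (0.21 to 0.37) and Insr at 0.24 (-0.02 to 0.50). Corrected by the length of the principal transcript, they stood at 3.43 for Igf1, -0.09 for Igf2r, 0.51 for Igfbp4 and 0.44 for Insr. Igf1 was higher under both. What part length plays in the values of Igf2r and Insr was not tested.

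**Figure D3:**
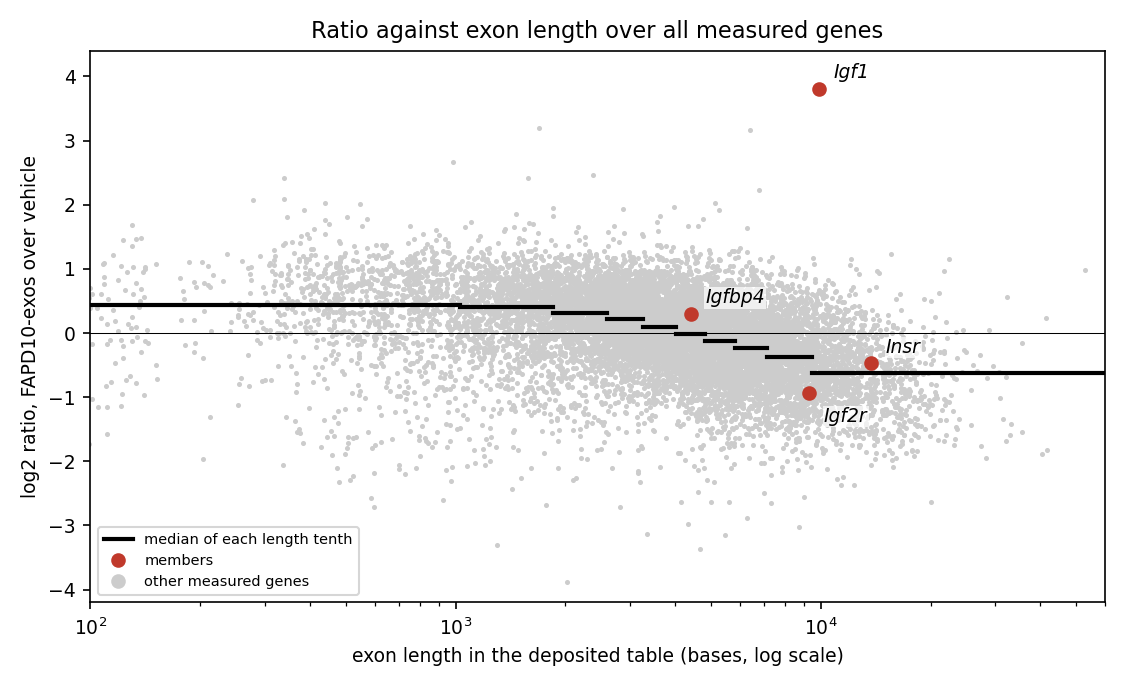
Log2 ratio of FAPD10-exos over vehicle (y) against exon length in bases (x, log axis) for measured genes (grey), with 105 genes outside the axes, the median of each length bin (black bars) and the 4 measured members (red). Igf2r lies below the median of its bin and Insr slightly above, whereas Igf1 at 3.81 lies far above a median of -0.62.

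The other genes of the pathway were taken from 11 lists by role, 92 genes with the members. Of these, 79 had a count and 62 were measured, with 4 called higher (6.45%), 20 called lower (32.3%) and 38 neither. Their median log2 ratio was -0.28, against 0.01 over all measured genes, and their median exon length was 6206.5 against 4014 bases. After the length correction the median was -0.08, with 5 higher (8.06%) and 9 lower (14.5%), beside 12.1% and 16.4% of all measured genes.

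Of 5 genes that mature or degrade the ligands and receptors 3 were measured, and all 3 were called lower, beside 19.8% of all measured genes. Furin, the protease that cuts the precursors of INSR and IGF1R, counted 249 in the FAPD10-exos and 525 in the vehicle library, with a ratio of 0.504 (0.431 to 0.587). The ratio was 0.599 (0.544 to 0.659) for Pcsk7, a relative of Furin, and 0.613 (0.566 to 0.663) for Ide, the insulin-degrading enzyme. After the length correction 1 of them, Pcsk7, was past the threshold at -0.62 in log2, beside 16.4% of all measured genes called lower. Pcsk5 had 0 counts in the FAPD10-exos and 2 in the vehicle library, and Pcsk6 0 in both. Among regulators of the binding proteins, Pappa, which cleaves IGFBP4, and Pappa2 had 0 counts in both libraries, and Htra1 and Stc1 had 4 and 2 with FAPD10-exos and 0 with vehicle. Stc2, an inhibitor of PAPPA, had 1739 counts in the FAPD10-exos and 1710 in the vehicle library and a ratio of 1.08 (1.01 to 1.16).

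Some adaptors downstream of the receptors were measured, although Irs1 and Irs2 did not pass the filter. Of 9 measured substrates and adaptors, 4 were called lower (44.4%, beside 19.8% of all measured genes) and 0 higher, and 3 lower (33.3%, beside 16.4%) with length corrected for. Sos1, which activates RAS, had a ratio of 0.479 (0.421 to 0.544), Gab2, a docking protein of cytokine receptors, 0.553 (0.506 to 0.604), Crk 0.558 (0.511 to 0.609) and Crkl 0.632 (0.528 to 0.755). With length corrected for, Sos1 fell short of the threshold at -0.53 in log2, while Gab2, Crk and Crkl were past it at -0.64, -0.76 and -0.59. Shc1 and Grb2, adaptors that link receptors to RAS and were named after their values were seen, had ratios of 0.820 (0.761 to 0.885) and 1.21 (1.12 to 1.31). Among the dampers of receptor signalling, 1 of 5 measured genes was past the threshold. It was Ptpn2, a phosphatase that acts on INSR and JAK kinases, with 2852 counts in the FAPD10-exos and 1943 in the vehicle library and a ratio of 1.56 (1.47 to 1.65), or 0.46 in log2, short of the threshold, with length corrected for. Ptprj, a receptor phosphatase named after its values were seen, had a ratio of 1.29 (1.21 to 1.38) and was past the threshold at 0.78 after that correction, which again makes 1 of 5 higher, beside 17.1% of all measured genes before the correction and 12.1% after it.

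In the PI3K, AKT and mTOR branch 9 of 23 measured genes were called lower (39.1%, beside 19.8% of all measured genes) and 0 higher. With length corrected for, 3 of the 23 were called lower, a smaller share than the 16.4% of all measured genes, and 1 was called higher. Rictor, a subunit of mTORC2, had a ratio of 0.417 (0.361 to 0.481), and the PI3K subunit genes Pik3cb and Pik3r1 had 0.445 (0.385 to 0.512) and 0.457 (0.421 to 0.496). Pik3cb and Pik3r1 stood at -0.85 and -0.64 after the correction and Rictor at -0.47, under the threshold. In the RAS and MAPK branch 2 of 9 measured genes were called higher (22.2%, beside 17.1% of all measured genes). Of the others, 1 was called lower (11.1%, beside 19.8%) and 6 neither. Hras was higher at 1.96 (1.84 to 2.10) and Map2k2, the gene of the kinase MEK2, at 1.78 (1.67 to 1.90), while Braf was lower at 0.414 (0.336 to 0.507). The length correction left Hras at 0.88 and Map2k2 at 1.01, and Braf at -0.56, under the threshold. Of the 9 genes, 2 were then called higher (22.2%, beside 12.1% of all measured genes) and 0 lower (beside 16.4%).

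Genes of the mannose 6-phosphate route, which IGF2R serves by carrying lysosomal enzymes, differed in size of ratio. Gnptab, a subunit of the enzyme that starts the mannose 6-phosphate tag, had 1373 counts in the FAPD10-exos and 2876 in the vehicle library. Its ratio was 0.507 (0.475 to 0.541), or -0.80 in log2 with length corrected for. M6pr, the smaller of the mannose 6-phosphate receptors, had 5408 counts in the FAPD10-exos and 5960 in the vehicle library and a ratio of 0.964 (0.929 to 1.000). Per base of exon, M6pr exceeded Igf2r by 7.99 times (7.55 to 8.47) in the FAPD10-exos and by 4.35 times (4.16 to 4.54) in the vehicle library. Of the 7 genes in this list, 1, Gnptab, was called lower (14.3%, beside 19.8% of all measured genes), 0 higher and 6 neither. The lower share was the same with length corrected for, beside 16.4%. Before that correction the log2 ratios of the list ran from -0.98 to 0.54. Of the RNA-binding proteins named for IGF2 mRNA, Igf2bp2 counted 533 in the FAPD10-exos and 1340 in the vehicle library, with a ratio of 0.422 (0.381 to 0.467) and -0.93 in log2 with length corrected for. Igf2bp3 had 9 counts in the FAPD10-exos and 14 in the vehicle library, and Igf2bp1 had 0 in both.

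**Figure D4:**
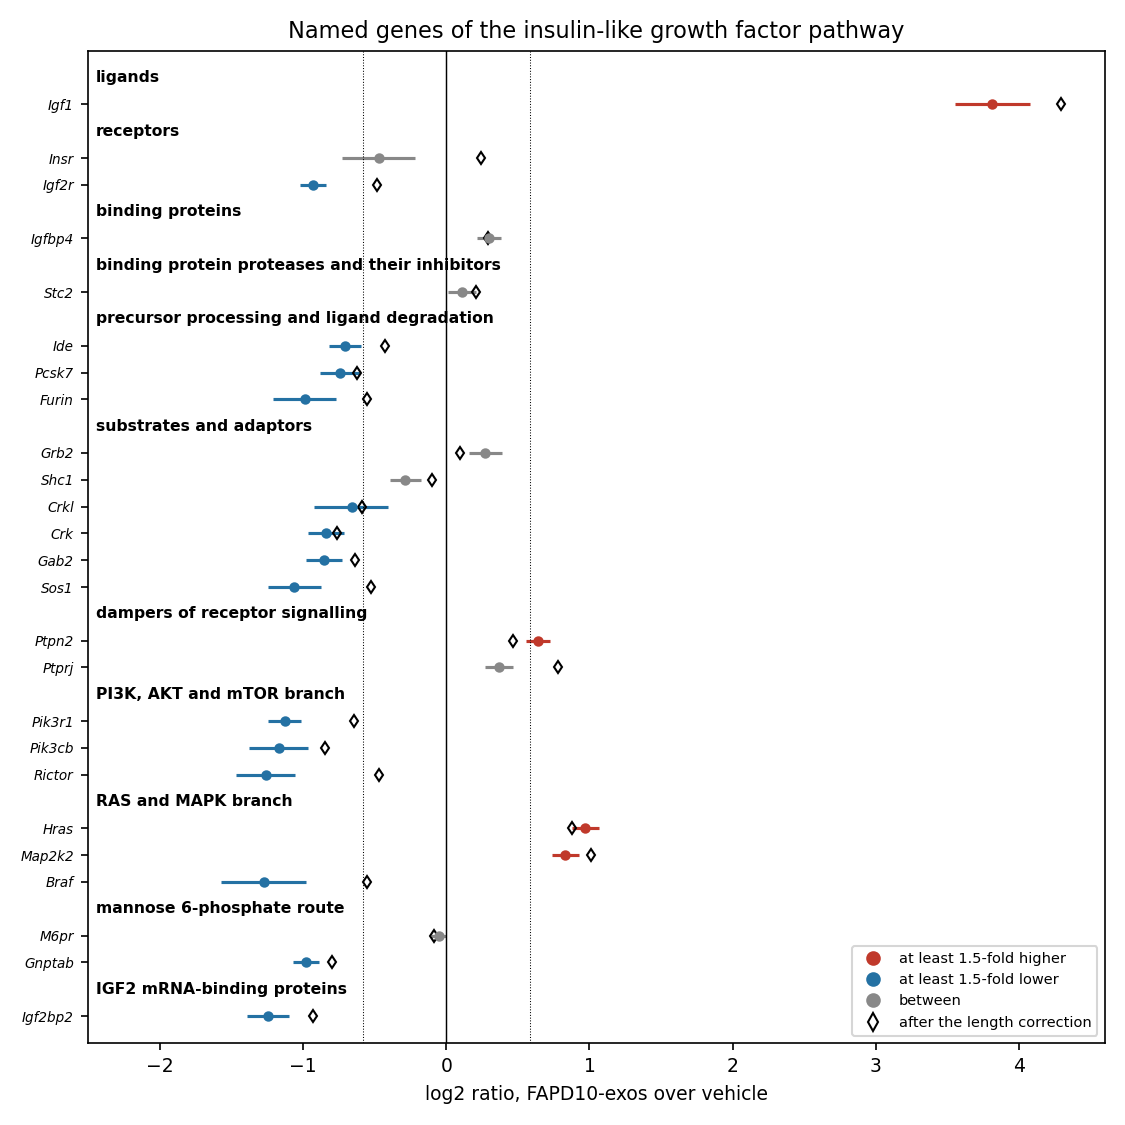
Log2 ratio of FAPD10-exos over vehicle (x) for 25 of the 62 measured pathway genes, those named in the text with a value, grouped by role (rows), with 95% counting intervals as bars, the 1.5-fold thresholds as dotted lines and the value after the length correction as open diamonds. Igf1 stands alone at 3.81, and the diamonds of the lower genes drawn here lie nearer to 0 than their points.

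Cells other than macrophages that make Igf1 were looked for by their markers. Of the 6 fibroblast markers, Col1a1, Col1a2, Dcn and Lum were at 0 in both libraries, Pdgfra had 0 with FAPD10-exos and 2 with vehicle, and Col3a1 4 with FAPD10-exos and 2 with vehicle. The list summed to 0.112 CPM in the FAPD10-exos and 0.106 CPM in the vehicle library. The hepatocyte markers Alb, Apoa1 and Ttr summed to 0.0562 CPM with FAPD10-exos and 0.106 CPM with vehicle, with Alb at 0 in both. The 4 muscle markers summed to 0.337 CPM with FAPD10-exos (10 counts of Acta1) and 0.265 CPM with vehicle (0 of Acta1). The 3 endothelial markers summed to 0.731 CPM with FAPD10-exos (24 counts of Pecam1) and 0.318 CPM with vehicle (6 of Pecam1). Of the 8 macrophage markers 2 were called higher (25%, beside 17.1% of all measured genes), 1 lower (12.5%, beside 19.8%) and 5 neither. Adgre1, the gene of the surface protein F4/80, had 247 counts in the FAPD10-exos and 90 in the vehicle library, with its ratio at 2.91 (2.28 to 3.75). The ratio of Spi1, the gene of the transcription factor PU.1, was 1.60 (1.54 to 1.66). Ptprc (CD45) was lower at 0.643 (0.624 to 0.662), and Cd68, Csf1r, Lyz2, Itgam and Cd14 had ratios of 0.806, 0.838, 0.912, 0.996 and 1.06. With length corrected for, 1 marker was called higher, Adgre1 at 1.37 in log2, and 1 lower, Cd68 at -0.69. The shares of all measured genes were then 12.1% and 16.4%. Spi1 stood at 0.37 and Ptprc at 0.15 after that correction, both short of the threshold. The part of these differences in the Igf1 value was not tested. The reference genes Actb, Gapdh and Hprt had ratios of 1.18, 1.55 and 1.36, and -0.06, 0.59 and 0.07 in log2 after the length correction.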

How the data were processed

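RNA-seq read counts of 2 RAW264.7 libraries, 1 per group, were used. The authors deposited 1 table of raw counts per gene symbol with exon positions and exon length, in the layout of featureCounts per the file headers. The submitters' processing notes list fastp 0.23.4, STAR 2.5.3a and featureCounts, and the human build GRCh38, whereas the symbols are mouse. Annotation, strand setting and treatment of multimapping reads were not stated in the labels or headers. RNA was taken up in TRIzol and sequenced on Illumina libraries, per the labels. Both count columns were found through the sample descriptions, and 0 were left unmatched.

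A quasi-likelihood fit in edgeR needs residual degrees of freedom, which 1 library per group does not leave, so no p-value is given. TMM scaled the counts (edgeR 4.0.16, R 4.3.3), with factors of 0.957 for FAPD10-exos and 1.05 for vehicle. Counts are uncertain for listed genes that share over 20% of exon bases with others (among them Igf2, Gsk3a, Inppl1, Mlst8, Gnptg, Itgam and Ckm). The length correction used the running median of log2 ratios in measured genes ordered by exon length, and DESeq2 1.42.0 gave the median-of-ratios alternative. The alternatives were 3 other scalings, halved counts, a filter at 10 CPM or none, a 2-fold threshold, 1 CPM added, and 2 length corrections. The use of transcript length, the counts over all measured genes and the counts of genes with 1 CPM added were chosen after seeing the data. Ratios and calls were checked on simulated Poisson counts with most genes at a ratio of 1. The length correction was checked on a simulated length trend. The simulated counts held neither the surplus of even counts nor the length trend, so they do not show how the intervals perform here. Promoters came from RefSeq. Named genes were the members, in each list up to 4 called genes with the largest absolute log2 ratio and 100 or more counts in total, genes of lists of up to 8 genes, the 5 genes nearest to Igf1 and 3 reference genes. The text describes a part of them, and some results are not reported here. Members and lists were chosen with earlier results of these data known. Python 3.11.15, pandas 2.3.3, scipy 1.17.1 and matplotlib 3.10.9 were used.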

Additional observations from a re-analysis of the deposited data

How the results depend on the processing

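The 1 member counted as higher, Igf1, stayed so under all 10 alternatives. Halved counts, both filter settings and the 2-fold threshold do not alter its ratio, so its call could hardly change there. Because Igf1 was chosen with this contrast known, the tally is a description. The log2 ratio of Igf1, 3.81, was 4.30 after the length correction, 3.43 with transcript length in its place and 3.48 with 1 CPM added to both values. The 1 member counted as lower, Igf2r, was joined by Insr under scaling by total counts, which made 2, and the count was 0 after either length correction and 0 at the 2-fold threshold. Of the 62 measured pathway genes, 20 were counted as lower (32.3%, beside 19.8% of all measured genes). After the length correction 9 were (14.5%, beside 16.4%). At the 2-fold threshold 8 of the 62 were lower, beside 1059 of all 12264 measured genes. There 1 in place of 4 was higher, beside 514 in place of 2097 of all. With transcript length 5 were lower, beside 1212 of 9966, and the pathway genes that have such a length were not counted. Over all measured genes the 2097 higher and 2429 lower became 514 and 1059 at the 2-fold threshold, 1162 and 1372 with the filter at 10 CPM, and 1023 and 1212 among the 9966 genes with a transcript length. The median over all measured genes shifted in log2 by -0.128 with total counts, by -0.043 with median-of-ratios and by 0.068 with upper-quartile scaling, and Igf1 stayed between 3.68 and 3.88. Fewer genes are tested by the stricter filter and fewer pass the stricter threshold by construction, and the cause of the other moves was not tested. No paired analysis was possible because each group held 1 library. Depth set a limit for Igf1r, Irs1 and Irs2, which lay at or under 3 counts.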
